A study of Mus musculus with 14 samples.

Results

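The lysyl oxidase family is a group of 5 mouse genes, Lox, Loxl1, Loxl2, Loxl3 and Loxl4. Their rows were taken by gene symbol from a table of raw read counts for 48795 genes, and all 5 were found and passed the filter on low counts, which kept 16408 genes. They were chosen as a gene family, with earlier results of these data known. RNA sequencing was done on fibroblasts that grew out of pieces of lung or dorsal skin of male C57BL/6J mice aged 8 to 10 weeks and were harvested on day 14 of culture on plastic, without stimulation. The mice were wild type or Rel -/-, and no other allele or agent is named in the labels. The protein made from Rel, c-Rel, belongs to the NF-kappaB transcription factors. There were 5 wild-type lung libraries (numbered 1, 23, 3, 4 and 5), 4 Rel-null lung libraries (7 to 10), 2 wild-type skin libraries (11 and 22) and 3 Rel-null skin libraries (18 to 20). The labels do not describe how the Rel allele was made. Whether each library came from its own animal is not stated either, and the p-values therefore reflect only library-to-library spread, which may be technical. The study's title places the work in systemic sclerosis and names c-Rel and fibroblast matrix production as its subject.

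Lysyl oxidases are secreted, copper-dependent amine oxidases. They convert lysine and hydroxylysine side chains of collagens and elastin into reactive aldehydes, which then form the covalent cross-links that give connective tissue its strength and make it resistant to breakdown. Lox and Loxl1 are made with a propeptide that Bmp1 and related proteases remove outside the cell, whereas Loxl2, Loxl3 and Loxl4 carry repeated scavenger receptor cysteine-rich domains in front of the same catalytic domain. In fibrosis of lung and skin the family is known for stiffening the matrix that fibroblasts lay down.

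The catalytic domain holds a histidine-rich motif that binds the copper ion, and its coding sequence shows how the members divide into a pair and a trio. Below are 81 coding bases of each of 4 members, read 5′ to 3′ from GENCODE M21 transcripts (GRCm38) and spliced across an intron. Capitals mark the 33 bases that encode the copper-binding motif.
Loxl1: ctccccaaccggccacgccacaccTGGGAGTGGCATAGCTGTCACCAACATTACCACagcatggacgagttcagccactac
Loxl2: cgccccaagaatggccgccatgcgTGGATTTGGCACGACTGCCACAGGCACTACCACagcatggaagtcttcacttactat
Loxl3: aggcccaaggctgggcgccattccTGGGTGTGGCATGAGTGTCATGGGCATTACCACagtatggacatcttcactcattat
Loxl4: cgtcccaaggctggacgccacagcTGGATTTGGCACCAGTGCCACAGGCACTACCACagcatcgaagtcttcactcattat
The Loxl1 stretch spans chr9:58293696-58294405 on the minus strand, in exons 3 and 4 of 7. The Loxl2 stretch spans chr14:69682292-69689061 on the plus strand, in exons 10 and 11 of 14. The Loxl3 stretch spans chr6:83049971-83050149 on the plus strand, in exons 10 and 11 of 14. The Loxl4 stretch spans chr19:42598783-42599923 on the minus strand, in exons 11 and 12 of 15.

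Over those 81 bases, Lox and Loxl1 were identical at 85.2% of positions and Loxl2 and Loxl4 at 84.0%. Loxl3 matched Loxl4 at 77.8% and Loxl2 at 75.3%. Between the 2 sets identity ran from 58.0% to 65.4%. The longest exact run shared by any transcripts of 2 members was 32 bases, between Lox and Loxl1, and it was 11 to 28 bases for the other 9 pairs. How the authors' counting treated reads that match several genes is not given in the sources used here.

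The identifiers and GRCm38 positions of the whole genes, from GENCODE M21, place each member on a chromosome of its own. Loxl1 (ENSMUSG00000032334) lies on chromosome 9, 58287738-58313186, minus strand. Loxl2 (ENSMUSG00000034205) lies on chromosome 14, 69609068-69695834, plus strand. Loxl3 (ENSMUSG00000000693) lies on chromosome 6, 83034173-83052562, plus strand, and its 3′ end overlaps Htra2, which encodes a mitochondrial protease, on the opposite strand. Loxl4 (ENSMUSG00000025185) lies on chromosome 19, 42593982-42612813, minus strand.

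Before the results, 3 properties of the libraries bear on the comparisons. In 13 libraries the total was 12780350 to 30987933 counts. The total of wild-type skin 22 was 2663437, which still gave 81 counts for Loxl4, the lowest count of any member in any library. Rel itself went against the label in 2 libraries: Rel-null skin 19 and 20 read 9.42 and 9.47 CPM (read counts scaled to the raw library total), beside 11.5 and 10.9 CPM in wild-type skin 11 and 22, whereas Rel-null skin 18 read 0.0349 CPM. Among lung libraries, Rel ran from 1.10 to 17.3 CPM with the wild-type label and from 0.0651 to 4.06 CPM with the Rel-null label, and wild-type lung 4 lay within the Rel-null range. Rel-null lung 10 is called lung by its title and source and skin by its treatment label, and it was kept with lung. In 4 libraries (Rel-null lung 7, wild-type skin 11, wild-type lung 4 and Rel-null skin 18) 3.37% to 11.5% of otherwise expressed genes were at 0 counts, against at most 0.728% in the others. Xist, which female cells express, was read in wild-type lung 1 and wild-type skin 22. Marker levels, unlike those of Rel above, are CPM on library totals corrected for differences in composition (TMM-scaled totals). All 9 fibroblast markers on the list used here were detected in every group, with a summed level of 11148 to 100273 CPM. Other cell types were also present: 10 macrophage and leukocyte markers summed to 5306 to 24735 CPM in lung and 28.8 to 157 CPM in skin, and 10 keratinocyte markers to 1142 to 2796 CPM in Rel-null skin and at most 47.5 CPM elsewhere. In such bulk samples, fewer cells of a type and less RNA per cell cannot be told apart.

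The family was strongly expressed and unevenly divided. CPM below are on TMM-scaled totals, which correct the library total for differences in composition. By mean CPM over the 14 libraries Lox ranked 29 of the 16408 genes tested, Loxl1 217, Loxl2 327, Loxl3 1105 and Loxl4 7510. Lox, the founding enzyme of the family, lies on the minus strand of chromosome 18, 52516067-52529867 (ENSMUSG00000024529). To compare genes with each other, CPM were divided by the exon length, from 3297 bases for Loxl1 to 5405 bases for Loxl2. On this scale of CPM per kilobase (kb), Lox had the highest level of the family in 14 of 14 libraries and Loxl4 the lowest in 14 of 14. Loxl1 stood above Loxl2 in 13 of 14 libraries, the exception being wild-type skin 22. Loxl2 stood above Loxl3 in 12 of 14, the exceptions being Rel-null skin 19 and 20.

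In wild-type lung, Lox had 669 ± 222 CPM per kb (mean ± SD, n = 5), Loxl1 208 ± 89.9, Loxl2 109 ± 27.7, Loxl3 29.9 ± 15.2 and Loxl4 3.66 ± 1.10. Of the neighbours in that order, the ranges of Loxl1 and Loxl2 overlapped and the others did not. In Rel-null lung (n = 4) the levels were 379 ± 65.4, 141 ± 35.2, 57.9 ± 20.7, 22.0 ± 1.60 and 3.11 ± 1.37 CPM per kb in the same order, with no overlap of neighbours. In wild-type skin (n = 2) they were 479 ± 45.4, 112 ± 34.3, 94.1 ± 50.9, 55.1 ± 16.9 and 7.64 ± 2.11 CPM per kb, and Loxl2 overlapped both Loxl1 and Loxl3. In Rel-null skin (n = 3) they were 403 ± 207, 157 ± 42.6, 41.7 ± 9.73, 47.0 ± 14.6 and 5.51 ± 1.47 CPM per kb, and here Lox overlapped Loxl1 and Loxl2 overlapped Loxl3.

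**Figure D1:**
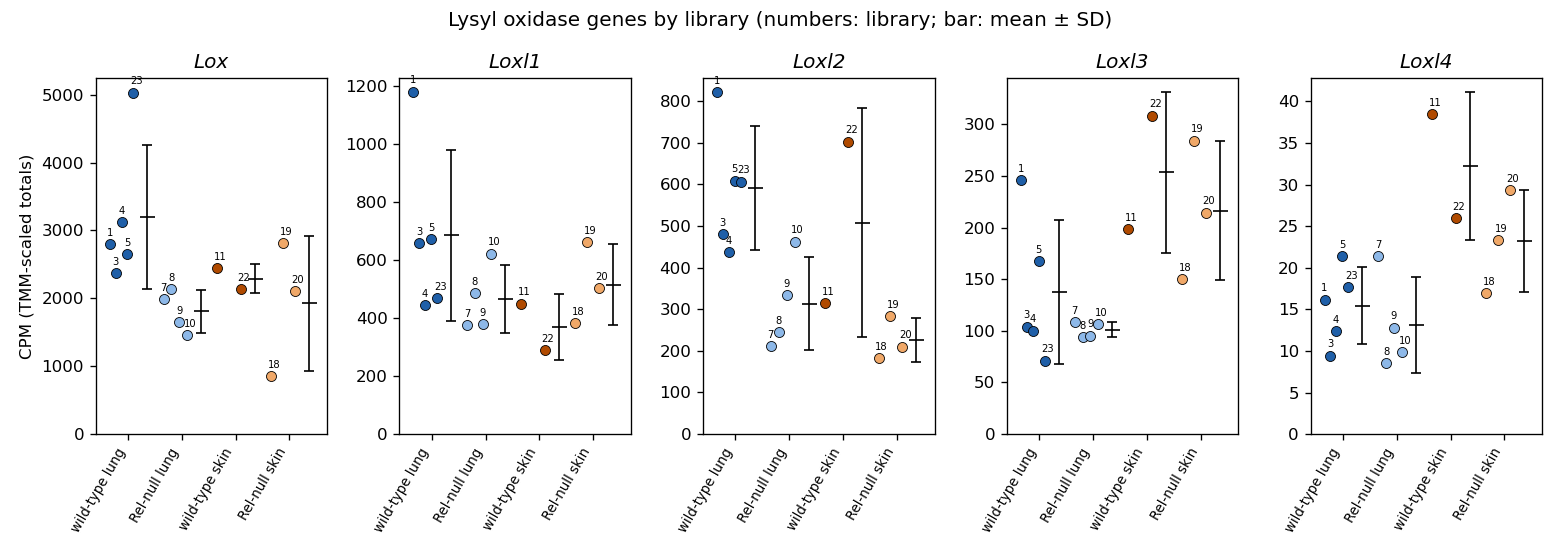
CPM on TMM-scaled totals (vertical axes, linear from 0) of the 5 lysyl oxidase genes in each library, by group; the small numbers are library numbers and the bars beside the points give the mean and SD. Lox in lung is lower in all 4 Rel-null libraries than in all 5 wild-type libraries, and Loxl3 and Loxl4 are higher in most skin libraries than in most lung libraries.

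The first comparison set Rel-null against wild-type lung fibroblasts, and Lox and Loxl2 had lower levels in the Rel-null libraries, though neither difference passed the test across all genes. Lox, which cross-links both fibrillar collagen and elastin, read 2798, 5031, 2369, 3122 and 2651 CPM in wild-type lung libraries 1, 23, 3, 4 and 5. In Rel-null lung 7, 8, 9 and 10 it read 1991, 2140, 1647 and 1457 CPM. Every Rel-null library lay below every wild-type library, and wild-type lung 23 stood far above the other 4. The means were 3194 ± 1062 and 1809 ± 313 CPM, a log2 fold change of -0.82 ± 0.35 (± SE of the fit; 95% interval -1.56 to -0.08), which is 1.77-fold lower. The edgeR quasi-likelihood test gave an unadjusted p of 0.0313 and a p of 0.781 after Benjamini-Hochberg adjustment over the 16408 genes. A two-sided exact permutation test of log2 CPM over all splits of these 9 libraries gave p = 0.0159, where 0.00794 is the smallest possible.

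Loxl2, known for its action on collagen IV of basement membranes as well as on fibrillar collagen, read 822, 606, 480, 438 and 609 CPM in wild-type lung libraries 1, 23, 3, 4 and 5. In Rel-null lung 7, 8, 9 and 10 it read 212, 245, 333 and 462 CPM. The groups overlapped through Rel-null lung 10, which lay above wild-type lung 4. The means were 591 ± 150 and 313 ± 112 CPM, and the log2 fold change was -0.92 ± 0.31 (95% interval -1.57 to -0.26), which is 1.89-fold lower. In the edgeR fit Loxl2 had an unadjusted p of 0.00925, rank 135 among all genes, and an adjusted p of 0.781. Its exact permutation p was 0.0159.

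The other members had smaller differences with wider relative error. Loxl1, the member tied to elastic fibre upkeep, read 1181, 468, 659, 446 and 673 CPM in wild-type lung libraries 1, 23, 3, 4 and 5 and 375, 486, 380 and 622 CPM in Rel-null lung 7 to 10. Those groups overlapped, and its log2 fold change was -0.56 ± 0.31 (95% interval -1.22 to 0.11, edgeR adjusted p = 0.821). Loxl3 ran from 71.1 to 246 CPM in the wild-type libraries and from 94.0 to 108 CPM in the Rel-null ones, with a log2 fold change of -0.45 ± 0.33 (edgeR adjusted p = 0.925). Loxl4 ran from 9.44 to 21.4 CPM and from 8.49 to 21.4 CPM, with a log2 fold change of -0.23 ± 0.45 (edgeR adjusted p = 1). The exact permutation p was 0.167 for Loxl1, 0.413 for Loxl3 and 0.452 for Loxl4.

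All 5 log2 fold changes in lung were below 0, with a median of -0.56, beside a median of -0.08 over all genes tested. None of the 5 passed the adjusted threshold of 0.05, and of all genes tested edgeR called 0, a background of 0%. At an unadjusted p under 0.05 there were 1036 genes; DESeq2 called 51 genes and limma-voom 6 at the adjusted threshold, none of them a lysyl oxidase. An unadjusted p under 0.05 with a lower Rel-null level was found for 2 of the 5 members, Lox and Loxl2, against 4.49% of all genes. Lower in Rel-null without overlap of the groups was 1 of the 5, Lox, against 1.43% of all genes. Without wild-type lung 23 the log2 fold change of Lox was -0.57 with an unadjusted edgeR p of 0.11, and 4 other single libraries left out (wild-type lung 4, Rel-null lung 9 and 10, Rel-null skin 20) also took it above 0.05, to between 0.0510 and 0.0840. Loxl2 kept an unadjusted edgeR p between 0.00270 and 0.0333 whichever of the 14 libraries was left out. Smooth muscle and pericyte markers, which summed to 906 to 3812 CPM in wild-type lung, stood at 10006 CPM in Rel-null lung 7 and at 985 to 1596 CPM in the other 3 Rel-null lung libraries. In Rel-null lung 7 Acta2 read 5867 CPM and Tagln 3192 CPM. Cnn1, Des and Cspg4 were also higher there than in every other lung library. Myh11 was not, at 30.6 CPM beside 11.6 to 58.2 CPM in wild-type lung, and Rgs5 was at 0. Macrophage and leukocyte markers summed to 5306, 12747, 19940, 15999 and 15694 CPM in wild-type lung libraries 1, 23, 3, 4 and 5. In Rel-null lung 7, 8, 9 and 10 the sum was 7169, 24735, 19894 and 21087 CPM. Whether these cell types take part in the lung differences was not tested.

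**Figure D2:**
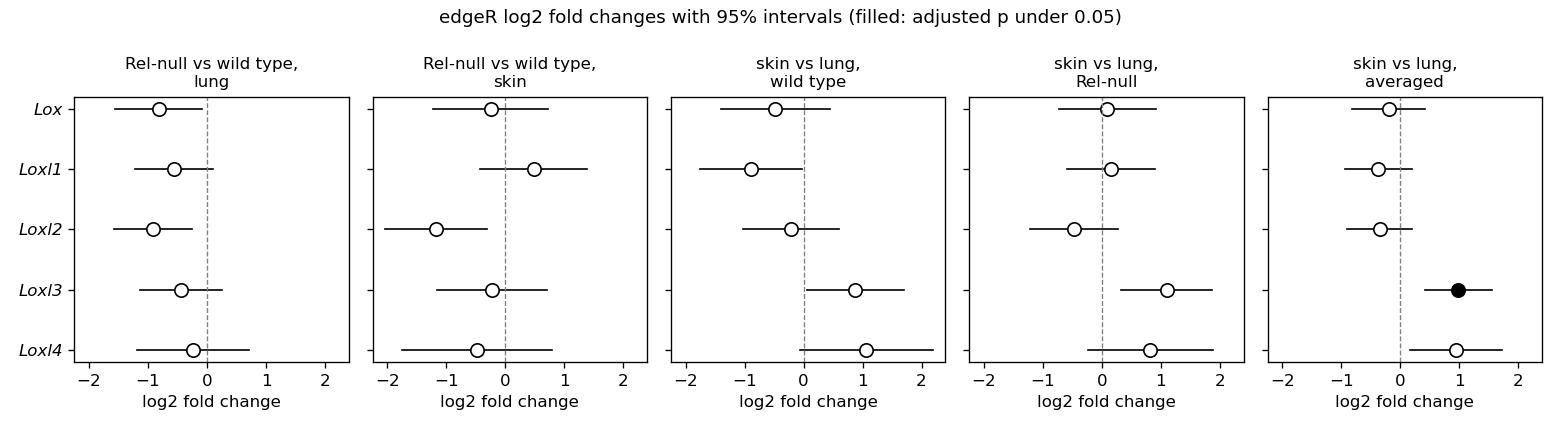
edgeR log2 fold changes (horizontal axes) of the 5 genes in 5 comparisons; lines are 95% intervals and filled points have an adjusted p under 0.05. The filled point is Loxl3 in skin versus lung averaged over genotypes, at 0.99, and all 5 points of the lung genotype comparison lie left of 0.

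In skin, the comparison of Rel-null with wild-type fibroblasts rested on 3 against 2 libraries, and Loxl2 was again the member with the largest fold change. Loxl2 read 314 and 703 CPM in wild-type skin 11 and 22. In Rel-null skin 18, 19 and 20 it read 182, 284 and 210 CPM. The groups did not overlap, but the wild-type pair differed from each other by more than wild-type skin 11 differed from any Rel-null library. The means were 508 ± 275 and 225 ± 52.6 CPM, and the log2 fold change was -1.17 ± 0.41 (95% interval -2.04 to -0.31), which is 2.25-fold lower, with an unadjusted edgeR p of 0.0111 and an adjusted p of 0.675. The exact permutation p was 0.1, the smallest that 10 splits allow, so that test cannot reach 0.05 here. Without wild-type skin 22 the log2 fold change was -0.48, with an unadjusted p of 0.310. Without Rel-null skin 19 and 20, whose Rel level goes against the label, it was -1.49 with an adjusted p of 0.565, from 1 remaining Rel-null skin library that is assumed to vary like the other groups.

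Lox read 2442 and 2135 CPM in wild-type skin 11 and 22, and 856, 2808 and 2110 CPM in Rel-null skin 18, 19 and 20. The Rel-null libraries lay on both sides of the wild-type pair. The lowest, Rel-null skin 18, had 1 count of Rel and was among the 4 libraries with the most genes at 0. So was Rel-null lung 7, also with 1 count of Rel. Its Lox level of 1991 CPM lay below Rel-null lung 8 (2140 CPM) and above Rel-null lung 9 and 10 (1647 and 1457 CPM). Whether Lox follows the Rel level was not tested. The log2 fold change of Lox was -0.25 ± 0.46 (95% interval -1.23 to 0.73, edgeR adjusted p = 0.984). It was -1.43 when Rel-null skin 19 and 20 were left out, which leaves Rel-null skin 18 alone in its group. Loxl1 read 450 and 290 CPM in the wild-type libraries and 382, 663 and 504 CPM in the Rel-null libraries, and its log2 fold change was 0.48 ± 0.43 (edgeR adjusted p = 0.891). Loxl3 had a log2 fold change of -0.23 ± 0.44 (edgeR adjusted p = 0.984) and Loxl4 of -0.47 ± 0.60 (edgeR adjusted p = 0.950). Both genes overlapped between the groups.

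Of all genes, edgeR called 0% between the genotypes in skin, and of the lysyl oxidases 0 of 5. There were 1024 genes at an unadjusted p under 0.05; DESeq2 called 153 genes and limma-voom 300, with no lysyl oxidase among them. Loxl2 was 1 of 5 members with an unadjusted p under 0.05 and a lower Rel-null level, against 2.59% of all genes, and 1 of 5 lower without overlap, against 10.3% of all genes. The keratinocyte markers summed to 26.6 to 43.3 CPM among wild-type and 1142 to 2796 CPM among Rel-null skin libraries. Krt15 was at 0 in both wild-type libraries and at 17.4, 0.737 and 0.072 CPM in Rel-null skin 18, 19 and 20. Trp63 overlapped between the groups. It read 0 and 5.12 CPM in wild-type skin 11 and 22, and 3.54, 1.90 and 0.433 CPM in Rel-null skin 18, 19 and 20. The summed adipocyte markers went the other way from the keratinocyte sum, with Cidec at 0 in both groups. The sum was 2309 CPM in wild-type skin 11, 402 CPM in wild-type skin 22 and 93.7 to 331 CPM in the Rel-null libraries. In wild-type skin 22 it was mostly Lpl, at 384 CPM. Adipoq and Plin1 read 36.9 and 129 CPM in wild-type skin 11, but 0 and 0.32 CPM in wild-type skin 22. Lpl and Pparg were higher in both wild-type libraries than in the Rel-null ones. Fabp4 was not: it read 8.96 CPM in wild-type skin 22 and 22.4 to 57.7 CPM in the Rel-null libraries. The part of these cell types in the skin differences was not tested.

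The genotype difference itself was then compared between the tissues. Loxl1 had the largest estimate of the family, 1.04 ± 0.53 on the log2 scale (skin minus lung, 95% interval -0.09 to 2.16), lower in Rel-null lung and higher in Rel-null skin, with an unadjusted edgeR p of 0.0688 and an adjusted p of 1.00. That estimate was 1.65 without the 4 libraries with the most genes at 0, 0.58 without Rel-null skin 19 and 20, and 0.49 without the 2 libraries with Xist, and the adjusted p was at least 0.473 under every alternative. The estimates were 0.57 ± 0.58 for Lox, -0.26 ± 0.51 for Loxl2, 0.22 ± 0.55 for Loxl3 and -0.24 ± 0.75 for Loxl4. None of the 5 was called, edgeR called 0% of all genes, and 766 genes had an unadjusted p under 0.05. DESeq2 called 100 genes and limma-voom 174, none of them a lysyl oxidase. For Loxl2 the 95% interval of the difference ran from -1.34 to 0.83, so the Rel-null effect in skin may be larger or smaller than in lung.

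Between skin and lung fibroblasts, Loxl3 was the one member called. Loxl3, whose loss in mice disturbs palate and spine development, rose in skin, with 138 ± 69.8 and 101 ± 7.35 CPM in the wild-type and Rel-null lung groups, and 253 ± 77.9 and 216 ± 67.3 CPM in the matching skin groups. It read 246, 71.1, 104, 100 and 167 CPM in wild-type lung libraries 1, 23, 3, 4 and 5, and 108, 94.0, 95.5 and 107 CPM in Rel-null lung 7 to 10. It read 198 and 309 CPM in wild-type skin 11 and 22, and 150, 284 and 214 CPM in Rel-null skin 18, 19 and 20. Wild-type lung 1 and 5 reached into the skin range, and the other 7 lung libraries lay below all 5 skin libraries.

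Averaged over the genotypes, the log2 fold change of Loxl3 (skin versus lung) was 0.99 ± 0.27 (95% interval 0.42 to 1.55), a 1.98-fold higher level, with an unadjusted edgeR p of 0.00194 and an adjusted p of 0.0254. The exact permutation p was 0.00599, where 0.0004995 is the smallest possible. That test ran over all splits of 5 skin against 9 lung libraries without regard to genotype. The call was lost without Rel-null skin 19 and 20 (0.73, adjusted p = 0.245). It was also lost without wild-type skin 22 (0.81, adjusted p = 0.104), without Rel-null skin 19 (0.86, adjusted p = 0.0770) and without Rel-null lung 8 (0.97, adjusted p = 0.0528). Within the genotypes, Loxl3 was higher in skin by 0.88 ± 0.39 among wild-type libraries (edgeR adjusted p = 0.33) and by 1.10 ± 0.37 among Rel-null libraries (edgeR adjusted p = 0.105), both on the log2 scale. Because the strand setting of the counting is not given, reads of Loxl3 and Htra2 where they overlap may not be told apart. Htra2 had a median of 45.0 CPM in lung (35.5 to 93.0) and 49.6 CPM in skin (22.5 to 58.9).

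Loxl4, the rarest member, read 16.2, 17.7, 9.44, 12.4 and 21.4 CPM in wild-type lung libraries 1, 23, 3, 4 and 5, and 21.4, 8.49, 12.8 and 9.83 CPM in Rel-null lung 7 to 10. It read 38.5 and 25.9 CPM in wild-type skin 11 and 22, and 17.0, 23.3 and 29.3 CPM in Rel-null skin 18, 19 and 20. All skin libraries except Rel-null skin 18 lay above all lung libraries. The averaged log2 fold change was 0.94 ± 0.37 (95% interval 0.17 to 1.72), with an unadjusted edgeR p of 0.0203 and an adjusted p of 0.124, and the exact permutation p was 0.00649. DESeq2 gave Loxl4 an adjusted p of 0.0243 and limma-voom 0.0334, and leaving out Rel-null lung 7 brought the edgeR value to 0.0290.

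Lox, Loxl1 and Loxl2 were not called between the tissues. Lox had an averaged log2 fold change of -0.20 ± 0.29 (95% interval -0.81 to 0.42), Loxl1 of -0.37 ± 0.27 (-0.93 to 0.19) and Loxl2 of -0.35 ± 0.26 (-0.90 to 0.20). Their exact permutation p were 0.352, 0.273 and 0.185, and that of Loxl2 was 0.0336 without wild-type skin 22. Among wild-type libraries alone Loxl1 had a log2 fold change of -0.89 ± 0.41 (edgeR adjusted p = 0.355), against 0.15 ± 0.35 among Rel-null libraries (edgeR adjusted p = 0.906). The tissue comparisons share no library between the genotypes, and the test of their difference is the one given above for Loxl1.

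In the averaged comparison 1 of the 5 members was called, against 10.4% of all genes. An unadjusted p under 0.05 with a higher skin level was found for 2 of the 5, Loxl3 and Loxl4, against 9.76% of all genes, and 0 of 5 were higher in skin without overlap of the 5 skin and 9 lung libraries, against 1.79% of all genes. Within the wild-type libraries edgeR called 0 of 5 members and 2.97% of all genes, and 2 members (Loxl1 and Loxl3) had an unadjusted p under 0.05, against 13.2% of all genes. DESeq2 called 0 members and 7.51% of all genes, and limma-voom called 0 members and 4.03% of all genes. Within the Rel-null libraries edgeR called 0 of 5 members and 5.05% of all genes, and 1 member (Loxl3) had an unadjusted p under 0.05, against 19.1% of all genes. There DESeq2 called 0 members and 10.8% of all genes, and limma-voom called 2 members, Loxl3 and Loxl4, and 27.4% of all genes. The summed level of the macrophage and leukocyte markers, all 10 detected in every group, separated lung from skin without overlap. Cd14 by itself overlapped, at 10.5 CPM in Rel-null lung 7 and 30.3 CPM in Rel-null skin 19. The sum of 7 endothelial markers also separated the tissues, at 34.4 to 113 CPM in lung and 6.57 to 24.1 CPM in skin. Emcn was at 0 in every skin library, and each of the other endothelial markers overlapped by itself. The sum of 6 skeletal muscle markers was 54.2 to 608 CPM in skin and at most 6.88 CPM in lung, apart from Rel-null lung 7. That library had 310 CPM, all of it Acta1, with the other markers of the list at 0. In wild-type skin 11 Acta1 made up 42.1 of the 54.2 CPM, and Ckm, Myh3 and Tnnt3 were at 0. Tnnt3 read 5.56 CPM in wild-type lung 1. The part of these cell types in the tissue differences was not tested.

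The make-up of the family shifted accordingly. As group means, Lox made up 65.0% (wild type) and 62.7% (Rel-null) of the family's summed CPM per kb among lung libraries. Among skin libraries it made up 64.0% (wild type) and 59.3% (Rel-null). Loxl3 made up 1.16% to 4.63% in the 9 lung libraries and 5.69% to 9.08% in the 5 skin libraries, which do not overlap. Loxl4 made up 0.277% to 0.847% in lung and 0.609% to 1.2% in skin, which do. In lung the summed level of the family was 1019 ± 214 CPM per kb with the wild-type label (810 to 1327) and 603 ± 48.2 with the Rel-null label (545 to 663). In skin it was 748 ± 14.0 and 654 ± 273 CPM per kb (365 to 909 in the Rel-null libraries). Lox carried the largest part of that sum, but the lung libraries were not in the same order by both. Rel-null lung 10 had the lowest Lox level, while Rel-null lung 9 had the lowest sum. No test was made on the sum or on the shares.

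**Figure D3:**
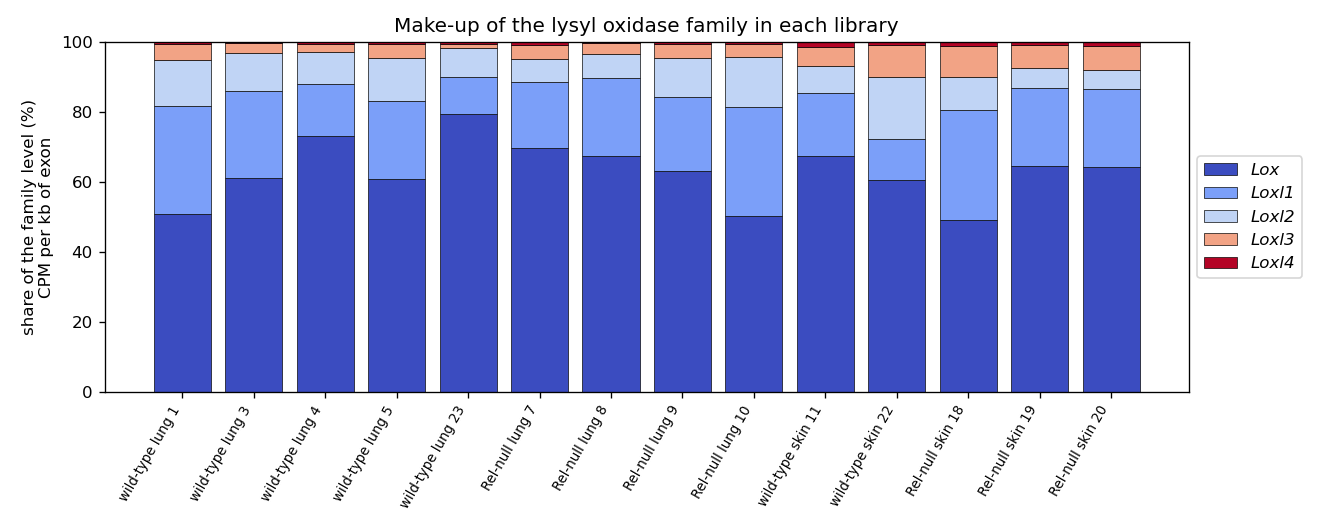
Share of each lysyl oxidase gene in the family's summed CPM per kb of exon (vertical axis, percent) in each of the 14 libraries (bars). Lox takes the largest share in every library, and the Loxl3 share is 1.16% to 4.63% in lung and 5.69% to 9.08% in skin.

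Among themselves the members did not move as a unit. Across the 14 libraries, the Pearson r of log2 CPM was highest between Loxl3 and Loxl4 at 0.656 and between Lox and Loxl2 at 0.532. The other 8 pairs lay between -0.203 and 0.397. Within the 9 lung libraries alone, r was 0.812 for Loxl1 with Loxl3 and 0.761 for Loxl1 with Loxl2. These are descriptions: the libraries share tissue and genotype groups, and genes of 1 library share its depth and cell make-up.

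The other genes of the cross-linking pathway give the setting of the family: 62 genes in 7 lists, of which 60 were tested. In the lung genotype comparison edgeR called none of them, and 0% of all genes. An unadjusted edgeR p under 0.05 with a lower Rel-null level was found for 10, against 4.49% of all genes. With a higher Rel-null level it was found for 2. Of all 16408 genes tested, 1036 had such a p in either direction, 736 of them with a lower Rel-null level. The substrates, collagens and elastin, were lower in Rel-null lung in 11 of 11 tested, with a median log2 fold change of -1.19, beside -0.08 for all genes. Those with an unadjusted p under 0.05, named after their values were seen, were Col11a1 (-1.55 ± 0.31), Col4a1 (-1.19 ± 0.32), Col5a2 (-1.35 ± 0.38), Col4a2 (-1.16 ± 0.33) and Col5a3 (-2.32 ± 0.84), each with an edgeR adjusted p of at least 0.735. Col4a1 and Col4a2 encode the collagen IV chains of basement membranes, and Col5a2, Col5a3 and Col11a1 chains that help set fibril diameter. Col3a1, a main fibrillar collagen of lung and skin and the most abundant of the list, had -0.72 ± 0.72 (edgeR adjusted p = 1). Elastin (Eln) had -1.22 ± 1.10 (edgeR adjusted p = 0.984).

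Scaffold proteins that bind or deposit the enzymes or their substrates were lower in Rel-null lung in 10 of 11 tested, with a median of -0.59. Among them fibronectin (Fn1) had -1.35 ± 0.54 (edgeR adjusted p = 0.781). Lysine hydroxylases and collagen chaperones were lower in 7 of 8, with a median of -0.28, and Serpinh1, the collagen chaperone Hsp47, had -0.29 ± 0.37 (edgeR adjusted p = 1). Propeptide proteases and their enhancers were lower in 4 of 7 tested, with a median of -0.44, and Pcolce, an enhancer of procollagen cleavage, had -0.44 ± 0.31 (edgeR adjusted p = 0.910). Bmp1, which removes the Lox propeptide, had -1.03 ± 0.35 (edgeR adjusted p = 0.781), and is named after its value was seen.

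Genes of copper supply were higher in Rel-null lung in 5 of 5, with a median of 0.43, and Slc31a1, the main copper importer, had 0.53 ± 0.24 (edgeR adjusted p = 0.781). TGF-beta and hypoxia genes, known inducers of lysyl oxidases, were higher in 8 of 11, with a median of 0.02, and Tgfbr2, a TGF-beta receptor, had 0.01 ± 0.37 (edgeR adjusted p = 1). Other amine oxidases and cross-linkers were lower in 5 of 7, with a median of -0.42, and transglutaminase 2 (Tgm2) had -0.03 ± 0.36 (edgeR adjusted p = 1). In skin, none of the 60 genes was called between genotypes, and 0% of all genes. The substrates were lower there in Rel-null libraries in 10 of 11 (median -1.45) and the copper genes higher in 4 of 5 (median 0.68). Scaffolds were lower in 8 of 11 (median -0.41), and propeptide proteases and enhancers in 6 of 7 (median -0.88). Lysine hydroxylases and collagen chaperones were lower in only 4 of 8 (median -0.03). Other amine oxidases and cross-linkers, mostly lower in lung, were higher in 4 of 7 (median 0.57). TGF-beta and hypoxia genes were higher in 6 of 11 (median 0.01). The median for all genes was 0.01.

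**Figure D4:**
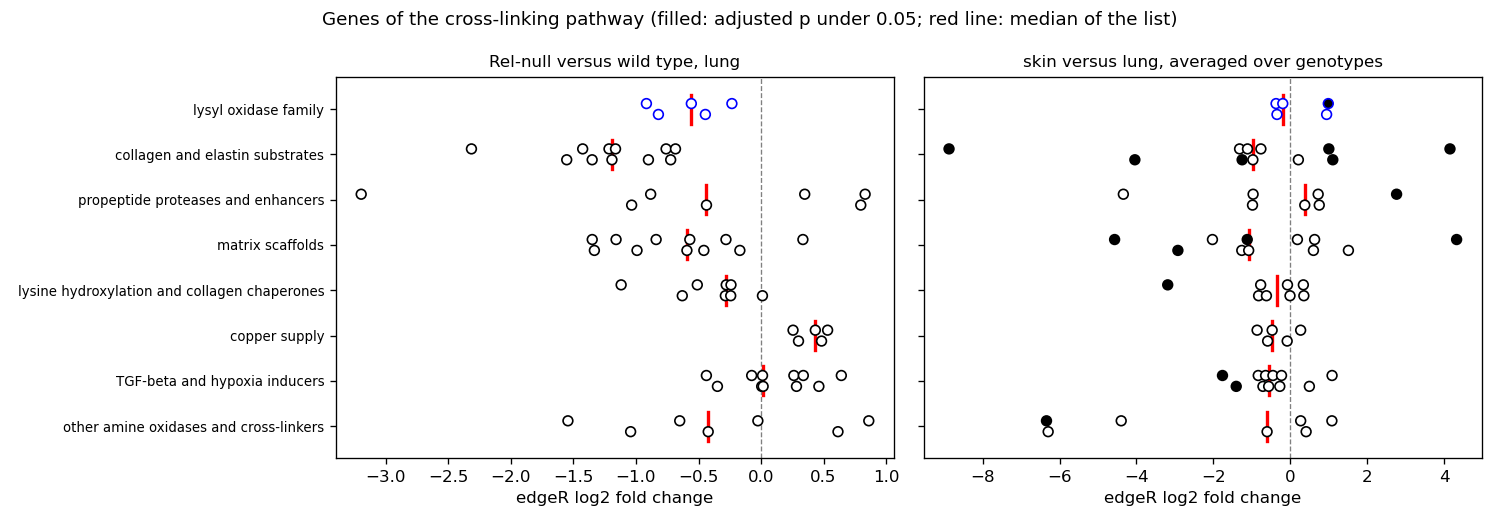
edgeR log2 fold changes (horizontal axes) of the lysyl oxidase genes (blue outlines) and of 7 lists of pathway genes, for Rel-null versus wild-type lung and for skin versus lung averaged over genotypes; each circle is a gene, filled where the adjusted p is under 0.05, and red lines are medians. In lung all 11 substrate genes lie left of 0 with none filled. Between the tissues 15 of the 60 pathway genes are filled, against 10.4% of all genes called.

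Between skin and lung, averaged over the genotypes, 15 of the 60 pathway genes were called, 5 higher and 10 lower in skin. Of all 16408 genes tested, 10.4% were called, 699 higher and 1012 lower in skin. Substrates went both ways. Col5a3 rose in skin by 4.15 ± 0.66 on the log2 scale (edgeR adjusted p = 6.19e-04), from 0.0607 to 27.7 CPM in lung to 52.0 to 422 CPM in skin. Eln fell by 8.87 (SE 1.57, edgeR adjusted p = 0.00151), from 38.2 to 3305 CPM in lung to 0.0669 to 3.20 CPM in skin. Col3a1 fell by 4.04 (SE 0.77, edgeR adjusted p = 0.00263). The skin cultures in which elastin stood at 3.20 CPM or less held Lox at 856 to 2808 CPM.

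Of the scaffolds, Postn, which binds collagen and Bmp1, rose in skin by 4.33 ± 0.55 (edgeR adjusted p = 8.10e-05), Tnxb, a tenascin of the dermis, fell by 2.92 (SE 0.53, edgeR adjusted p = 0.00180), and Mfap4, an elastic fibre protein, fell by 4.57 (SE 0.85, edgeR adjusted p = 0.00238). In skin Plod2, the lysine hydroxylase of collagen telopeptides, fell by 3.19 (SE 0.34, edgeR adjusted p = 1.79e-05), from 245 to 725 CPM in lung to 14.5 to 83.5 CPM in skin. Tgm2, which makes a different kind of protein cross-link, fell by 6.34 (SE 0.45, edgeR adjusted p = 9.82e-07), with means of 815 ± 436 and 801 ± 236 CPM in wild-type and Rel-null lung and of 8.19 ± 0.192 and 12.1 ± 1.55 CPM in the matching skin groups. Adamts14, a procollagen N-proteinase, rose by 2.76 ± 0.78 (edgeR adjusted p = 0.0316). Tgfbr2 fell by 1.41 (SE 0.33, edgeR adjusted p = 0.0124) and Tgfb3, a TGF-beta ligand, fell by 1.76 (SE 0.46, edgeR adjusted p = 0.0221). No copper gene was called; Slc31a1 had -0.59 ± 0.21 (edgeR adjusted p = 0.0950). Tgm2 and Tgfbr2 are also expressed by macrophages, whose summed markers were higher in lung. That part was not tested.

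The genes whose log2 CPM tracked each member most closely over the 14 libraries, out of 16407 other genes, differed from member to member. For Loxl2 they were Fn1 (Pearson r 0.898, Spearman rho 0.846), Col5a2 (0.898 and 0.877) and the collagen prolyl hydroxylase family gene P3h3 (0.882 and 0.815), all of them on the pathway lists. For Loxl1 they were Rcn3, a calcium-binding protein of the endoplasmic reticulum (0.892 and 0.864), the proprotein convertase Pcsk5 (0.874 and 0.820) and Pdgfra, a growth factor receptor of fibroblasts (0.868 and 0.851). For Loxl3 they were Mxra7 (0.900 and 0.899), the processed pseudogene Gm5835 (0.898 and 0.798), whose reads are uncertain, and the cadherin Cdh11 (0.864 and 0.771).

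For Lox they were the calcium channel gene Pkd2 (0.877 and 0.758), the glutamate receptor gene Gria3 (0.852 and 0.763) and Btg3 (0.827 and 0.745). For Loxl4 they were Fxr2 (0.927 and 0.921), the kinesin Kif1a (0.890 and 0.864) and Ptprn (0.878 and 0.846). No pathway gene was among the closest 3 of Lox, Loxl1, Loxl3 or Loxl4. These correlations carry no test, since they are the highest of many and the libraries share tissue, depth and cell make-up.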

How the data were processed

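The authors deposited raw read counts per Ensembl gene for all 14 libraries. Per the submitters' processing notes, the build was GRCm38 and the tools included STAR 2.4.2a, Trimmomatic 0.33 and FastQC 0.11.2. Per the labels' protocols, libraries kept strand. Which program counted the reads, whether it used strand and with which annotation is not given in the sources used here. Symbols, positions and exon lengths came from GENCODE M21, which held 48435 of the 48795 identifiers. Counts were tested with edgeR 4.0.16 (R 4.3.3): genes were kept by filterByExpr with a minimum count of 10 and a minimum total of 15, and TMM factors were followed by a quasi-likelihood fit of 4 group means to all 14 libraries, which share 1 estimate of spread, and Benjamini-Hochberg adjustment over 16408 genes at a threshold of 0.05. The common dispersion was 0.948. Exact two-sided permutation tests used log2 CPM (prior count 1) of single genes, 15 tests in all, with no adjustment over the members. Those of skin against lung did not take genotype into account. Pathway lists are described by counts and medians, with no list test. Genes named from each list are those past the threshold, at most 3 per list and comparison by smallest p, or else the most abundant gene; the 3 genes closest to each member by Pearson r are also named. The members, the lists, the marker lists and the naming rule were chosen with earlier results of these data known. Alternatives were DESeq2 1.42.0, limma-voom with quality weights (limma 3.58.1), RLE factors, no low-count filter, a minimum of 1 CPM in at least 4 libraries, fits of only the groups compared, each library left out, and sets of libraries left out (the 4 with the most genes at 0 where the mean elsewhere in the tissue was at least 5 CPM, the 2 with Xist, and Rel-null skin 19 and 20). Permutation tests under these alternatives were added after the data were seen. The procedure was tested on simulated data. The lowest member count in any library was 81.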

Additional observations from a re-analysis of the deposited data

Results flagged for a closer look

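Of 22 group ranges tested with Dixon's criterion for a single distant sample, 3 had a library far from the rest of its group, where chance gives about 1 in 20. Lox in wild-type lung 23 read 5031 CPM, against at most 3122 CPM in the other 4 libraries of the group. The gap was 0.717 of the group's range, above the critical value of 0.71. The share of Loxl3 in the family level per kb in Rel-null lung 8 was 3.08%, and the gap was 0.857 of the range against a critical value of 0.829. The share of Loxl4 in wild-type lung 5 was 0.556%, and the gap was 0.800 of the range against 0.71.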

How the results depend on the processing

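No paired analysis was possible because the groups share no replicate numbers. In lung and skin genotype comparisons, in wild-type skin versus lung and in the difference of genotype effects, 0 lysyl oxidase genes were called under every alternative run. The share of all genes called was at most 0.311%, 2.5%, 7.51% and 2.08% in the same order. In Rel-null skin versus lung the count rose from 0 (5.05% of all genes called) to 2 with limma-voom (27.4%) and without the 4 libraries with the most genes at 0 (12.4%), and to 1 without the 2 Xist-positive libraries (6.2%) and with only the groups compared (5.97%). Averaged over genotypes the count went from 1 (10.4%) to 2 with DESeq2 (15.4%), limma-voom (17.2%) and without those 4 libraries (14.9%). It went to 0 without the skin libraries 19 and 20 labelled Rel-null (5.77%). With single libraries left out it ranged from 0 to 2, and the share of all genes called from 5.93% to 13.9%. Log2 fold changes that changed sign were all uncalled. In skin by genotype, Lox became 0.068 with limma-voom and 0.28 without the 4 libraries, Loxl3 0.037 with limma-voom and 0.16 without the Xist-positive libraries, and Loxl4 0.11 without the 4 libraries. Loxl2 in wild-type skin versus lung became 0.15 without the 4 libraries. Lox averaged over genotypes became 0.065 with limma-voom. Without those libraries 19 and 20, the tissue comparison of Rel-null cells became -1.08 for Lox and -0.29 for Loxl1, and the difference of genotype effects became -0.62 for Lox and -0.33 for Loxl3. That difference became 0.036 for Loxl4 with limma-voom, 0.73 for Loxl4 without the 4 libraries and 0.32 for Loxl2 without the Xist-positive libraries. With single libraries left out, the ranges that crossed 0 were -0.63 to 0.16 (Lox) and -0.48 to 0.12 (Loxl3) by genotype in skin, -0.91 to 0.24 (Loxl2, wild-type skin versus lung), -0.29 to 0.47 (Lox) and -0.073 to 0.36 (Loxl1) in Rel-null skin versus lung, and -0.69 to 0.44 (Loxl2), -0.13 to 0.57 (Loxl3) and -0.50 to 0.14 (Loxl4) for the difference of genotype effects. Exact permutation tests in skin whose difference changed sign had p of 1 (Lox and Loxl4 without the 4 libraries) and 0.75 (Loxl3 without the Xist-positive libraries), and with single libraries left out ranged from 0.333 to 1 for Lox and from 0.5 to 1 for Loxl3. In lung the exact permutation p reached at most 0.0571 for Lox and for Loxl2, and between skin and lung at most 0.0227 for Loxl3 and 0.0273 for Loxl4. Mean CPM moved by less than 1 SD with raw or RLE-scaled totals in 40 of 40 group values. The causes were not tested.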
